A study of Mus musculus with 6 samples.

Results

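The AP-1 and immediate early factors were 10 genes chosen by gene symbol, Fos, Fosb, Fosl1, Fosl2, Jun, Junb, Jund, Atf3, Egr1 and Maff. All 10 were found among the 29595 genes measured, and all 10 passed the filter on low counts. They were read in 6 RNA sequencing libraries from TKPTS cells, a mouse kidney line of proximal tubule origin that is kept in culture. The Hnf3a group (3 libraries) had been transfected with pcDNA3.1-Hnf3a-Flag, a plasmid for Flag-tagged HNF3α, a forkhead factor encoded by Foxa1. The pcDNA group (3 libraries) had received pcDNA3.1-Flag, the same plasmid without the Hnf3a insert. The labels call the former HNF3alpha overexpression and the latter WT. No further treatment is named for either, and all cells were harvested 24 h after transfection. The expression was transient, the share of cells that took up the plasmid is not given, and nothing in the labels says whether the replicates were separate cultures, so p-values measure the spread between these libraries only. The question here was how the cells' own early response factors differed between the Hnf3a and pcDNA groups.

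AP-1 is a pair of basic leucine zipper (bZIP) proteins, usually a Fos protein joined to a Jun protein, that binds DNA and switches genes on or off. Immediate early genes such as Fos, Egr1 and Atf3 are transcribed within minutes of a growth signal, a cytokine or a stress, without new protein being made, and their mRNA is short-lived. In injured kidney tubules these genes are known to be induced early.

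Fos was the member that fell, so the sequence upstream of its start is shown beside those of its nearest relative Fosb and of Junb and Maff, which held a forkhead core and a CRE in their windows. Each stretch is the 250 bases before a RefSeq start (GRCm38.p6), 5′ to 3′ on the gene's own strand, with motif matches in capitals. The stretches lie at chr12:85473640-85473889 on the plus strand for Fos, chr7:19310046-19310295 on the minus strand for Fosb, chr8:84978749-84978998 on the minus strand for Junb and chr15:79347270-79347519 on the plus strand for Maff. The Fos stretch ends just before the gene's first base in the deposited table, while the RefSeq starts of Fosb, Junb and Maff lie 6, 30 and 899 bases from theirs. The Maff stretch is the one of its 3 windows that held the CRE.
Fos: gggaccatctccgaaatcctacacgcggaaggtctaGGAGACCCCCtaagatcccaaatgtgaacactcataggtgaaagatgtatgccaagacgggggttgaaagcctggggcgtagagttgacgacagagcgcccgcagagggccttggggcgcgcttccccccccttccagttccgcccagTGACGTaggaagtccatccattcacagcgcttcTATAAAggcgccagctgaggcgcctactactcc
Fosb: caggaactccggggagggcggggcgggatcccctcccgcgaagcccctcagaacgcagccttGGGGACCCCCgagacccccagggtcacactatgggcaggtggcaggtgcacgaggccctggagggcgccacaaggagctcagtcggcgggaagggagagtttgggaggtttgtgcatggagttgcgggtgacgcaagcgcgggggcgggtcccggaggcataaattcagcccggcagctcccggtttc
Junb: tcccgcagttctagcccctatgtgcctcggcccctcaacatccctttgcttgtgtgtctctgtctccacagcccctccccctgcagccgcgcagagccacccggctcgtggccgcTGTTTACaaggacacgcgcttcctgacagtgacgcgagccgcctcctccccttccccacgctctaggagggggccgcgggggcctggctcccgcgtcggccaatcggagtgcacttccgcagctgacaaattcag
Maff: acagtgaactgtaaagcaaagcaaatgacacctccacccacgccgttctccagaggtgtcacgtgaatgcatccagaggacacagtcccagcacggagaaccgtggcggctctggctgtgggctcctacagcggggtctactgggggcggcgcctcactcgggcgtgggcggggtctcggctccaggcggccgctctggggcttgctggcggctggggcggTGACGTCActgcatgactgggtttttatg

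Motifs were sought on both strands in windows reaching 250 bases before and 50 bases after each start, of which RefSeq gave 10 for 8 of the members (3 for Maff, and none was used for Fosl1 or Egr1). The forkhead core TGTTTNC, the letters a FOXA protein can bind, was found in 1 of the 8 genes, Junb, starting at base -135, and in 20.5% of all 32851 windows. The CRE core TGACGT, bound by CREB and ATF proteins, was found in Fos (at base -66), Atf3 and Maff, and in 7.51% of all windows. The full CRE TGACGTCA, which holds the core on both strands, was found in Maff alone among the 8 genes (1.79% of all windows). A kappa B motif was found in Fos, Fosb, Fosl2 and Maff (8.46% of all windows). TATAAA, the core of a TATA box, was found in Fos and Junb (13.6% of all windows). It began at base -33 in Fos but at base 1 in Junb, past the stretch printed above. The AP-1 motif TGANTCA and the CArG box of serum response factor were found in 0 of the 10 windows, against 7.81% and 1.63% of all windows. These matches describe the letters in the windows only, and sites farther from a start were not sought. For Fosl2, Jund and Atf3 the RefSeq starts lay 671, 1210 and 34706 bases from those in the deposited table.

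The transfected gene and the other cells a culture might hold were examined before the members. Values of single libraries are listed throughout in the order of the replicate numbers 1, 2 and 3. Foxa1 stood at 334.2, 295.5 and 284.2 FPKM (fragments per kilobase of transcript, scaled to library size) with Hnf3a and 9.49, 9.54 and 9.96 FPKM with pcDNA. Total estimated counts ranged from 60473818 to 71154667 per library. Of 17 proximal tubule genes 11 had a row in the table, with a summed level of 11.5 to 12.2 FPKM in the Hnf3a group and 11.2 to 11.8 FPKM in the pcDNA group, and Slc5a2 and Miox among them did not exceed the detection floor of 12 counts in any library. All 8 genes of simple epithelia were above the floor in every library, with sums of 987.6 to 999.3 FPKM with Hnf3a and 941.3 to 959.7 FPKM with pcDNA, which do not overlap. Of these 8 genes 4 passed the test, beside 3.17% of all tested genes, with Krt18 and Krt19 higher and Cldn1 and Tjp1 lower in the Hnf3a group, and their part in the results on the members was not tested. Of 8 fibroblast genes, all exceeded that floor in the Hnf3a libraries 2 and 3 (7.74 and 9.56 FPKM in sum), 4 in Hnf3a replicate 1 (0.228 FPKM) and 1 to 3 in the pcDNA libraries (0.119 to 0.202 FPKM). Of 10 macrophage genes, all exceeded it in the same pair of libraries (18.1 and 19.9 FPKM), 3 in Hnf3a replicate 1 (13.2 FPKM) and 2 to 4 in the pcDNA libraries (12.6 to 14.5 FPKM). Hnf3a replicates 2 and 3 thus stood apart from the other 4 libraries in the fibroblast and macrophage markers, and the results below were also computed with Hnf3a replicate 1 as the only Hnf3a library. In bulk RNA, fewer cells of a type and less RNA per cell cannot be told apart.

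Among the 10 factors Fos alone passed the test, and it fell. It encodes c-Fos, the founding member of the Fos family. Fos read 11.9, 11.7 and 11.5 FPKM with Hnf3a and 17, 16.8 and 18.5 FPKM with pcDNA. The 3 Hnf3a libraries lay close together and all below the lowest pcDNA library. Mean levels were 11.7 ± 0.227 FPKM with Hnf3a and 17.4 ± 0.916 FPKM with pcDNA (SD, n = 3 in each). Fos had a log2 fold change of -0.59 (SE 0.052, 95% interval -0.70 to -0.47), a level of 0.666 times that of the pcDNA group, with an adjusted p of 1.69e-05 by the quasi-likelihood test of edgeR.

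By p-value Fos ranked 42 among the 17824 genes tested. An adjusted p under 0.05 was reached by 3.17% of all tested genes, 2.13% lower and 1.04% higher in the Hnf3a group, so 1 of 10 members is a count that rests on this single gene. In the 17 alternative fits the Fos log2 fold change stayed between -0.61 and -0.54 and its adjusted p between 3.05e-19 and 0.00426. With Hnf3a replicate 1, the Hnf3a library low in fibroblast and macrophage genes, set alone against the pcDNA group, Fos had a log2 fold change of -0.55 (edgeR adjusted p 0.00426). That fit assumes that the lone library varies as the pcDNA libraries do. Fos (ENSMUSG00000021250) is a plus-strand gene of chromosome 12 (85473890 to 85477273, GRCm38). It has 4 exons in its longest transcript, and is overlapped by no other annotated gene.

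**Figure D1:**
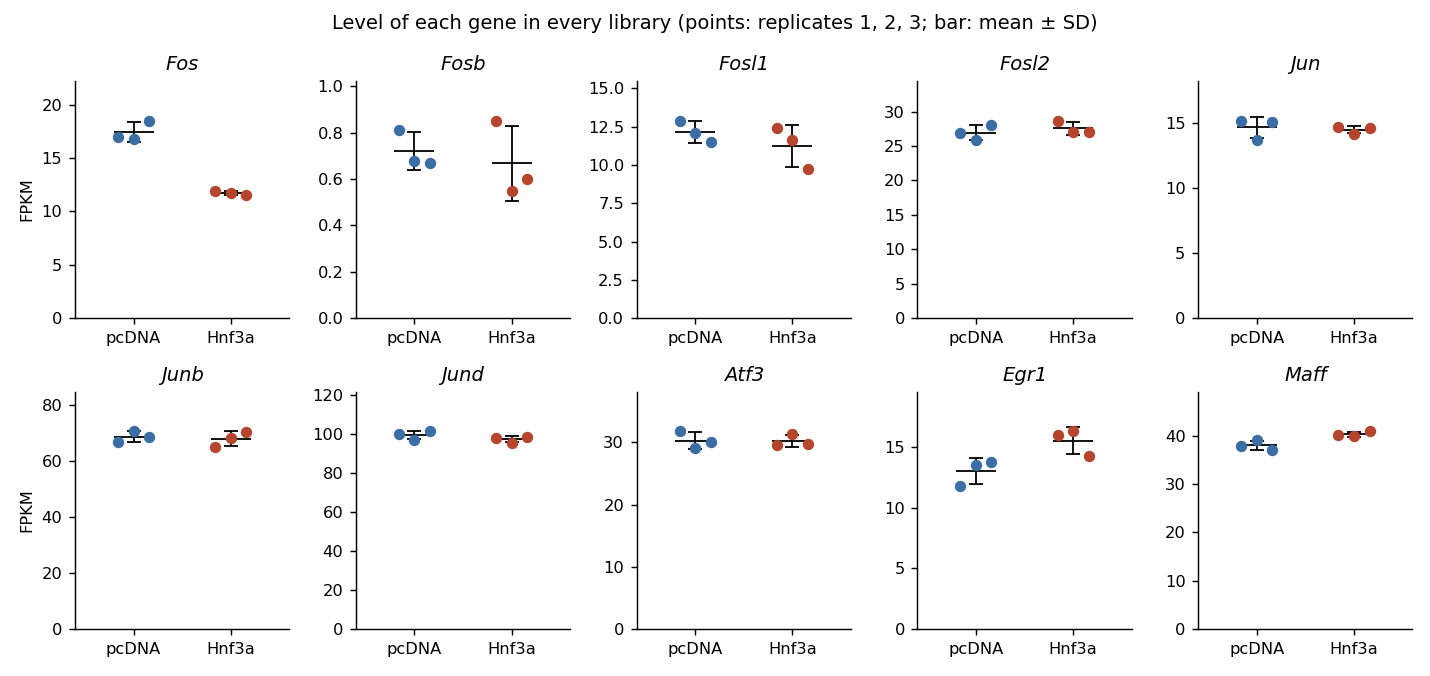
Level of each of the 10 factors in every library, in FPKM on linear axes that start at 0. Points are replicates 1, 2 and 3 from left to right in each group and bars are the mean ± SD (n = 3). Fos sits at 11.5 to 11.9 FPKM in the Hnf3a group and 16.8 to 18.5 FPKM in the pcDNA group, and only Fos, Egr1 and Maff have groups that do not overlap.

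Egr1 was higher in every Hnf3a library than in any pcDNA library but did not pass the test. It encodes a zinc finger factor that is often induced together with Fos. Egr1 (chromosome 18) read 16, 16.3 and 14.3 FPKM with Hnf3a and 11.8, 13.5 and 13.8 FPKM with pcDNA. The groups did not overlap, but Hnf3a replicate 3 and pcDNA replicate 3 lay close to each other. The means were 15.6 ± 1.1 FPKM and 13 ± 1.1 FPKM (SD, n = 3 in each). The log2 fold change was 0.25 (SE 0.0638, 95% interval 0.11 to 0.39), with an unadjusted p of 0.00258 and an edgeR adjusted p of 0.0679. The call depended on the fit. Egr1 passed the threshold in 4 of 17 alternatives, which were the filter at 1 FPKM (edgeR adjusted p 0.0439), counts divided by 4 (edgeR adjusted p 0.0467), the DESeq2 Wald test (adjusted p 0.00447) and the edgeR fit without Hnf3a replicate 3 (adjusted p 0.0164). Over all alternatives its adjusted p ran up to 0.263, which was reached without Hnf3a replicate 2. With Hnf3a replicate 1 alone the log2 fold change was 0.30 (edgeR adjusted p 0.125).

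Fos and Egr1 thus exchanged places in the order of levels. The log2 ratio of Fos to Egr1, both in FPKM, was -0.427, -0.487 and -0.319 with Hnf3a and 0.531, 0.314 and 0.419 with pcDNA. Egr1 mRNA was the more abundant per length in every Hnf3a library and Fos mRNA in every pcDNA library. The difference of -0.832 holds the lower level of Fos and is no separate support for it.

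The other Fos family genes did not pass the test. Fosl2 encodes Fra-2 and was the most abundant of the family, at 28.7, 27 and 27.1 FPKM with Hnf3a and 26.9, 25.9 and 28 FPKM with pcDNA. These groups overlapped, and the 95% interval of the log2 fold change ran from -0.0513 to 0.11 (edgeR adjusted p 0.831). Fosl1, which encodes Fra-1, was at 12.4, 11.6 and 9.72 FPKM in the Hnf3a libraries and 12.9, 12.1 and 11.5 FPKM in the pcDNA libraries. Its Hnf3a replicate 3 was the lowest of the 6 libraries, and its interval ran from -0.30 to 0.0591 (edgeR adjusted p 0.608). Annotation places Ccdc85b over Fosl1 on the other strand, and the use of strand in counting is not stated, so part of the Fosl1 count is uncertain.

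Fosb was the least abundant of the 10 factors. It encodes FosB, whose truncated form accumulates after repeated stimulation in neurons. It read 0.852, 0.549 and 0.6 FPKM with Hnf3a and 0.813, 0.678 and 0.669 FPKM with pcDNA. Replicate 1 was the highest library in both groups, and the spread within the Hnf3a group (coefficient of variation 24.3%) was the widest of the 10 factors. The Fosb interval, -0.48 to 0.25, was accordingly broad (log2 fold change -0.12, edgeR adjusted p 0.858). With Hnf3a replicate 1 alone against the pcDNA group the value turned to 0.24, and that of Fosl1 to 0.0297, again without passing the test (edgeR adjusted p 0.643 and 0.928).

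Within the Fos family, Fos held a smaller share of the transcripts in every Hnf3a library. It made up 22.1%, 23% and 23.4% of the summed Fos family FPKM with Hnf3a, and 29.6%, 30.3% and 31.5% with pcDNA. Fosl2 made up 54 ± 1.28% in the Hnf3a group and 47 ± 0.646% in the pcDNA group (SD, n = 3). Neither share overlapped between the groups. The shares of Fosl1 (21.9 ± 1.74% and 21.2 ± 1.51%) and Fosb (1.3 ± 0.257% and 1.26 ± 0.138%) overlapped. These shares are measured on FPKM, which is per length, and add up to the whole, so that a lower share of Fos raises the others by construction. The summed level of the family was 51.2 ± 2.53 FPKM with Hnf3a and 57.2 ± 1.64 FPKM with pcDNA (SD, n = 3; two-sided exact permutation p 0.1, which is the smallest that 3 libraries against 3 allow). This sum holds the lower level of Fos and is no separate support for it.

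**Figure D2:**
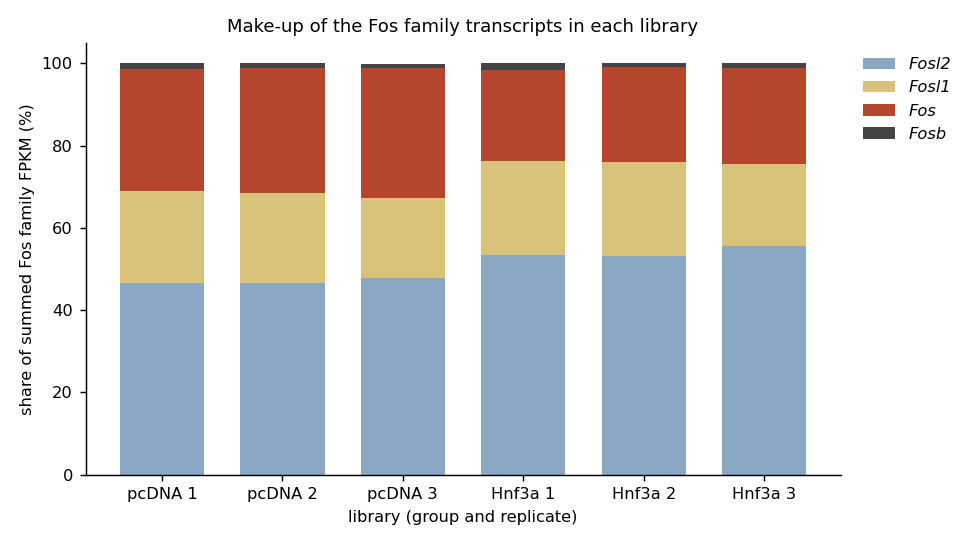
Make-up of the Fos family in each library, as the percentage of the summed FPKM of Fos, Fosb, Fosl1 and Fosl2 that each gene holds. The Fos segment spans 22.1% to 23.4% in the 3 Hnf3a libraries and 29.6% to 31.5% in the 3 pcDNA libraries.

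The Jun family, the partners of the Fos proteins, was more abundant than the Fos family and did not pass the test. Jund was the most abundant of the 10 factors, at 98.2, 95.5 and 98.5 FPKM with Hnf3a and 100.1, 97.1 and 101.5 FPKM with pcDNA. Junb stood at 64.9, 68.2 and 70.2 FPKM and at 66.6, 70.5 and 68.5 FPKM. Jun, which encodes c-Jun, stood at 14.7, 14.2 and 14.6 FPKM and at 15.2, 13.7 and 15.1 FPKM. The groups overlapped for each of these 3 genes. Their 95% intervals were -0.11 to 0.0307 for Jund, -0.10 to 0.0563 for Junb and -0.13 to 0.0793 for Jun, with edgeR adjusted p of 0.689, 0.872 and 0.901. Antisense genes are annotated over Jun (Junos) and Jund (Gm11175), and their reads may be counted with these genes.

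Summed over the Jun family, the level was 179.7 ± 3.13 FPKM with Hnf3a and 182.8 ± 2.07 FPKM with pcDNA (SD, n = 3), a difference with an exact permutation p of 0.3. The ratio of Fos family to Jun family FPKM was 0.303, 0.285 and 0.267 with Hnf3a and 0.317, 0.306 and 0.317 with pcDNA. The groups did not overlap, but Hnf3a replicate 1 and pcDNA replicate 2 nearly met (exact permutation p 0.1). This ratio, too, holds the lower level of Fos and is no separate support for it.

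Atf3 and Maff complete the set. Atf3, a stress-induced bZIP factor that often represses, read 29.6, 31.3 and 29.8 FPKM with Hnf3a and 31.8, 29.1 and 30 FPKM with pcDNA. The groups overlapped, with an interval of -0.10 to 0.0811 (edgeR adjusted p 0.956). A small noncoding RNA gene, Gm24748, overlaps Atf3 on the other strand. Maff, a small Maf protein that pairs with other bZIP factors and lacks an activation domain of its own, stood at 40.2, 40 and 41 FPKM and at 37.9, 39.1 and 37.2 FPKM. All 3 Hnf3a libraries were above the pcDNA libraries, by little. Its log2 fold change was 0.0784 (95% interval 0.00475 to 0.15, unadjusted p 0.0387, edgeR adjusted p 0.327), and it passed the threshold in 0 of 17 alternatives.

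**Figure D3:**
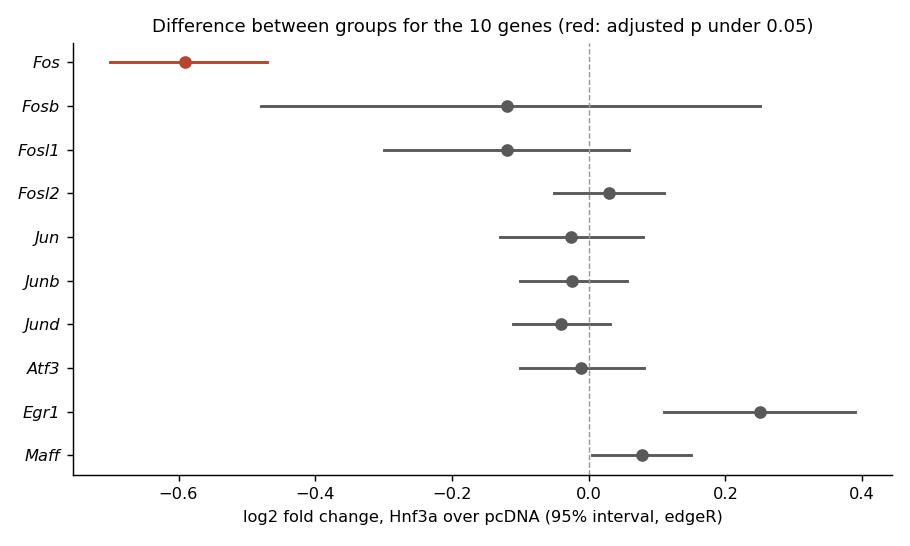
Log2 fold change of each factor, Hnf3a over pcDNA, with its 95% interval from the edgeR fit, and a dashed line at 0. Fos at -0.59 is the point past the threshold, and the intervals of 8 of the other 9 factors lie wholly above that of Fos, the exception being Fosb.

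Set side by side, 7 of the 10 log2 fold changes were negative, beside 49.8% of all tested genes. The median was -0.0251 beside 0.000845 over all tested genes. Of the 7 negative values, only that of Fos had a 95% interval wholly below 0. In FPKM the groups were apart for 3 of the 10 factors (Fos, Egr1 and Maff), beside 19% of all 17824 tested genes (8.7% with Hnf3a below pcDNA and 10.3% with Hnf3a above it). The 95% intervals of 8 of the other 9 factors lay wholly above that of Fos, and the interval of Fosb overlapped it. The log2 ratio of Fos to each of Fosl1, Fosl2, Jun, Junb, Jund, Atf3, Egr1 and Maff was lower in every Hnf3a library than in any pcDNA library, while the ratio of Fos to Fosb overlapped. All of these ratios hold Fos, which was the member that passed the test, so they restate its lower level against each gene and are no separate support for it. The difference in these ratios was -0.616 against Fosl2 and -0.561 against Jun.

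In order of level in the pcDNA group, from the highest, the factors were Jund, Junb, Maff, Atf3, Fosl2, Fos, Jun, Egr1, Fosl1 and Fosb. Jun and Egr1 overlapped there, as did Egr1 and Fosl1, and all other neighbours were apart in every library. In the Hnf3a group Fos (11.5 to 11.9 FPKM) lay below Jun (14.2 to 14.7 FPKM) and Egr1 (14.3 to 16.3 FPKM) and within the range of Fosl1 (9.72 to 12.4 FPKM). Jund stood at the 97.7th percentile of the tested genes by FPKM and Fosb at the 29.5th percentile. Fos moved from the 82.7th percentile in the pcDNA group to the 75.4th percentile in the Hnf3a group, and Egr1 from the 77.4th percentile to the 80.9th percentile. Where annotated genes overlapped a factor, the order of neighbours could move with how those reads were counted.

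Other immediate early genes were a list of 43, of which 40 were tested. Of these 40, 9 fell and 0 rose by edgeR, that is 22.5% lower beside 2.13% of all tested genes. An unadjusted p under 0.05 was reached by 16 of the 40. Among all 17824 tested genes Bhlhe40, with an unadjusted p of 0.048 by edgeR, ranked 2373, which marks about how many of all genes reached such a p. DESeq2 called 11 of the list lower and 0 higher, and its share over all genes is not given here. The list had a median log2 fold change of -0.0584, with 29 of 40 values negative (72.5%, beside 49.8% of all genes). Like the lists below, it was written with earlier results of these data known. Its counts are therefore not independent evidence of a direction. The 9 were Ier3, Id3, Pim1, Tiparp, Phlda1, Zfp36l1, Ccn1, Cited2 and Nr4a2, in order of p. Ier3, which restrains cell death after a stress, read 223.5, 230.5 and 238.2 FPKM with Hnf3a and 277.4, 281.4 and 282.3 FPKM with pcDNA. Its groups were apart, with a log2 fold change of -0.29 (SE 0.0309, edgeR adjusted p 9.39e-05).

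Id3, an inhibitor of helix-loop-helix factors, averaged 46.7 ± 1.02 FPKM with Hnf3a and 54.5 ± 0.496 FPKM with pcDNA (SD, n = 3; log2 fold change -0.23, edgeR adjusted p 0.00127). Pim1, a survival kinase, was at 11.5 ± 0.393 FPKM and 14.3 ± 0.716 FPKM (SD, n = 3; log2 fold change -0.33, edgeR adjusted p 0.00153). All 9 lower genes had log2 fold changes between -0.36 and -0.15, and 0 of the 40 had a value below that of Fos. The 31 genes that did not pass had values from -0.17 to 1.34. The number past the threshold was 4 when Hnf3a replicate 2, pcDNA replicate 1 or pcDNA replicate 2 was left out, 5 without pcDNA replicate 3 (of which 1 was higher), and 4 in each limma fit. With Hnf3a replicate 1 alone genes of the list passed in both directions. The list's median stayed negative in all of these fits.

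The bZIP proteins that can pair with the members or share their sites were a list of 34, of which 30 were tested. Creb3l2 and Bach2 were higher and 0 genes were lower by edgeR, beside 1.04% higher and 2.13% lower among all genes. An unadjusted p under 0.05 was reached by 5 of the 30, to be read beside the number among all genes given above. DESeq2 also called 2 higher and 0 lower, and its share over all genes is not given here. Creb3l2, a membrane-bound activator of secretory pathway genes, read 3.99, 3.9 and 3.55 FPKM with Hnf3a and 2.96, 2.95 and 3.08 FPKM with pcDNA. The groups were apart, with a log2 fold change of 0.34 (edgeR adjusted p 0.00614). Bach2, a repressor that pairs with small Maf proteins, had 90, 53 and 66 counts against 26, 23 and 27 counts (log2 fold change 1.38, SE 0.334, edgeR adjusted p 0.0405) and passed in 5 of 16 alternatives. The median of the list was 0.00943 and its sign turned in some alternatives (-0.036 to 0.0313). Without Hnf3a replicate 2 and without pcDNA replicate 2 neither gene passed, and without Hnf3a replicate 1, pcDNA replicate 1 or pcDNA replicate 3 only 1 gene did. Without Hnf3a replicate 3, 1 gene of the list was higher and 1 lower, and with Hnf3a replicate 1 alone genes also passed in both directions.

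The kinases upstream of AP-1 and the phosphatases and Sprouty proteins that switch them off were a list of 48, all tested. Of these, 3 fell (Dusp4, Dusp10 and Map2k1) and 1 rose (Spry1), that is 6.25% lower beside 2.13% of all tested genes, and a single higher gene of 48 beside 1.04%. The median was -0.00473, which turned positive under total-count scaling, in the limma fits, without Hnf3a replicate 2 or pcDNA replicate 3, and with Hnf3a replicate 1 alone. Dusp4, a nuclear phosphatase that inactivates MAP kinases, read 17.3, 17.6 and 16.3 FPKM with Hnf3a and 20.9, 21.4 and 21.2 FPKM with pcDNA. These groups were apart, with a log2 fold change of -0.32 (edgeR adjusted p 0.000754), and Dusp4 passed in 17 of 17 alternatives. Dusp10, a phosphatase of the stress kinases JNK and p38, was at 18.2 ± 0.542 FPKM and 20.8 ± 0.0626 FPKM (SD, n = 3; log2 fold change -0.20, edgeR adjusted p 0.012).

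Map2k1 encodes MEK1, which activates ERK, and Spry1 restrains growth factor signalling. Their log2 fold changes were -0.14 and 0.15 (edgeR adjusted p 0.0356 and 0.0413), and each passed in 6 of 17 alternatives. The number of genes past the threshold in this list was 1 without Hnf3a replicate 2, without pcDNA replicate 1 or without pcDNA replicate 2, and 2 without Hnf3a replicate 1 or without pcDNA replicate 3. With Hnf3a replicate 1 alone it was 1.

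Genes commonly described as AP-1 targets were a list of 54, of which 50 were tested. They moved in both directions, with 11 lower and 5 higher (22% and 10% of the tested genes, beside 2.13% and 1.04% of all genes). The median log2 fold change was -0.017. With Hnf3a replicate 1 alone genes of the list again passed in both directions. The part of the fibroblast and macrophage signal of the other Hnf3a libraries in these values was not tested. Several of them also have NF-κB sites, and the list was written with earlier results of these data known, so the counts are not independent evidence of a direction. Cxcl2, Lif and Ccl2 had the smallest p of the lower genes. The others were the secreted factors Edn1, Cxcl1, Csf2 and Il6, the metallothioneins Mt1 and Mt2, the lectin Lgals3 and the cyclin Ccnd1, and all 11 log2 fold changes lay between -1.78 and -0.11. Cxcl2, a chemokine that draws neutrophils, read 40.2, 42.9 and 42.1 FPKM with Hnf3a and 71.4, 68.1 and 63.4 FPKM with pcDNA. These groups were far apart (log2 fold change -0.70, edgeR adjusted p 8.05e-07).

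Lif, a cytokine of the IL-6 family, averaged 74.4 ± 2.24 FPKM with Hnf3a and 100.4 ± 0.998 FPKM with pcDNA (SD, n = 3; log2 fold change -0.44, edgeR adjusted p 1.28e-06). Ccl2, a chemokine that draws monocytes, had a log2 fold change of -0.59 (SE 0.0398), the same size as that of Fos at the precision printed. The 5 higher genes were Plau, Krt18, S100a6, Spp1 and Il11. Plau, which encodes the protease urokinase, read 210.4, 214.1 and 200.9 FPKM with Hnf3a and 179.2, 181.2 and 170.7 FPKM with pcDNA. The groups were apart (log2 fold change 0.23, edgeR adjusted p 0.00145). Krt18, a keratin that is also among the genes of simple epithelia above, and S100a6, a calcium-binding protein, had log2 fold changes of 0.20 and 0.18 (edgeR adjusted p 0.00148 and 0.00324).

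**Figure D4:**
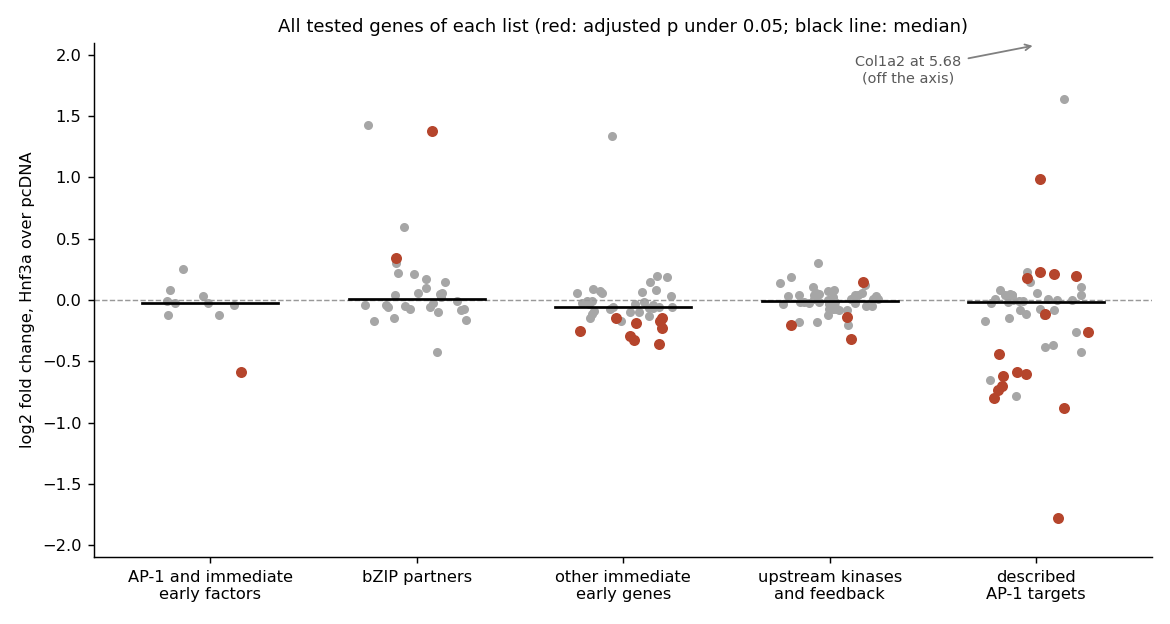
Log2 fold change of every tested gene of the 10 factors and of the 4 lists, Hnf3a over pcDNA. Each point is a gene, red where the adjusted p is under 0.05, and black lines are medians. Among the other immediate early genes all 9 red points lie below 0, while the described AP-1 targets have 11 below and 5 above it. Col1a2, at 5.68 and not past the threshold, is beyond the axis.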

How the data were processed

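The authors deposited, per the file headers, an estimated count and an FPKM value for each gene and library. Cutadapt 1.9, HISAT2 2.0.4, UMI-tools, StringTie 1.3.4d, DESeq2, edgeR and the mm10 build are named in the submitters' processing notes, without their roles, and options, annotation and use of strand are not given in the sources used here. The estimated counts were whole numbers and peaked at 4 counts per gene (1148 to 1203 genes per library), so 1 fragment was taken as up to about 4 counts and the detection floor was set at 12 counts (0.169 to 0.198 CPM). The floor covers counting error only. Coordinates were those of the table, identical to GENCODE vM21 (GRCm38) for 25765 of 29514 shared genes.

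Genes were filtered with filterByExpr, scaled by TMM and tested two-sided between the groups with edgeR 4.0.16 (estimateDisp, glmQLFit with robust fitting, glmQLFTest) under R 4.3.3 from the group alone. The Benjamini-Hochberg adjustment covered the 17824 genes that passed the filter, and 0.05 was the threshold. The standard error was the absolute log2 fold change over the square root of F, and 95% intervals used the t distribution with the fitted degrees of freedom. Family sums and the ratio between the families, in FPKM, were compared by exact permutation of the 6 libraries, two-sided. Limma 3.58.1 and DESeq2 1.42.0 served as alternatives, and the procedure was tested on simulated data. On the log2(FPKM + pseudocount) scale of limma the change of low genes is understated.

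The members and the gene lists were chosen with earlier results of these data known. The genes named were the 10 members, Foxa1, and up to 3 higher and 3 lower genes per list with the smallest p past the threshold, plus lists of 5 or fewer. List symbols of older usage were matched through RefSeq synonyms. Promoter windows were taken from RefSeq (GRCm38.p6). Alternatives were other filters, scalings, pseudocounts and tools, the replicate number as a block, counts divided by 4, and leaving out each library. Hnf3a replicate 1 alone against the pcDNA group was added after seeing the data.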

Additional observations from a re-analysis of the deposited data

How the results depend on the processing

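Of the 25 genes followed (the 10 factors and 15 genes named from the lists), 13 kept their direction and their side of the threshold in all 17 alternatives, Fos among them. The number of genes past the threshold was 565 as reported, 236, 231 and 245 by limma with pseudocounts of 0.1, 1 and 0.01 FPKM, and 322 with Hnf3a replicate 1 alone. It ran from 263 (without Hnf3a replicate 2) to 643 (without Hnf3a replicate 1) when 1 library was left out, and was 286, 267 and 349 without pcDNA replicates 1, 2 and 3. The number of the 10 factors past the threshold was 1 as reported and 2 with the filter at 1 FPKM, with the DESeq2 Wald test and with counts divided by 4, Egr1 being added, and ran from 1 to 2 with 1 library left out. Over the 4 lists together 31 genes passed as reported, 15, 15 and 16 did in the same limma fits, and 18 to 31 with 1 library left out (18 without Hnf3a replicate 2, 19 without pcDNA replicate 1, 18 without pcDNA replicate 2). The limma fits left 4 other immediate early genes in each, 2 kinases and feedback genes in each, 0 bZIP partners in each, and 9, 9 and 10 described targets. The cause of these changes was not tested. Leaving out 1 library changed both the number of libraries and which of them remained, and these cannot be told apart here.

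Signs turned only for factors that did not pass. Atf3 was at 0.000437 under total-count scaling and ran from -0.0396 to 0.0259 with 1 library left out, Fosb from -0.34 to 0.00804, Fosl2 from -0.00423 to 0.0583 and Junb from -0.0486 to 0.00124. With Hnf3a replicate 1 alone Fosb was at 0.24 and Fosl1 at 0.0297. Bach2, Spry1, Map2k1, Creb3l2, Dusp10 and S100a6 lost the threshold in 11, 11, 11, 5, 5 and 3 alternatives.

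The replicate numbers are shared by the groups, but libraries of one number did not deviate together (correlations of -0.0411, -0.0102 and 0.00998). These values gave no ground for pairing the libraries, but they cannot show how the cultures were set up. A replicate block left 463 genes, 1 of the 10 factors and 24 list genes past the threshold. Fos had a log2 fold change of -0.59 there (edgeR adjusted p 0.000257). Counts were low for Fosb, at 273 to 388 per library, and for Bach2, at 23 to 90. The part of depth in the spread of these genes was not tested.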
